A study of Mus musculus with 6 samples.

Results

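Glutathione and antioxidant genes were followed by RNA-Seq in lenses of Gata3 CKO and control embryos. The 42 genes were chosen by name, as enzymes and regulators of glutathione, thioredoxin and peroxide chemistry, from the 13024 genes of the deposited count table. Genes of these families absent from it could not be chosen. At E14.5, 6 pools of 10 lenses from 5 embryos each were sequenced, 3 for each group, on a mixed C57BL/6 and FVB background. The CKO pools carried Gata3 f/f with Pax6-Cre/+ and are labelled Gata3 -/-. The control pools are labelled wild type, while the paper gives their genotype as Gata3 f/wt without Cre in one place and as Gata3 f/f in another. Pax6-Cre is driven by a Pax6 enhancer and promoter of the ocular surface ectoderm and acts in lens and corneal precursors, and also in some scattered cells of the retina. Only the CKO pools carried Cre, so an effect of Cre and one of Gata3 loss cannot be told apart.

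The lens keeps one of the highest concentrations of glutathione of any tissue, and loss of that pool accompanies cataract. Glutathione is made from glutamate, cysteine and glycine by glutamate-cysteine ligase and glutathione synthetase. Glutathione peroxidases oxidize it to remove peroxides, glutathione reductase regenerates it with NADPH, and glutathione transferases attach it to electrophiles. Peroxiredoxins remove peroxides with electrons from thioredoxin, which thioredoxin reductase renews. Nrf2, which Keap1 holds at a low level, raises transcription of many of these genes through antioxidant response elements in their DNA.

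Between 15157230 and 18811104 fragments were counted per library, and the lowest count of any of the 42 genes in any library was 22. Levels are in CPM, counts set against the size of their own library as scaled with edgeR's TMM factors, and log2FC is the log2 fold change of CKO against control. The Gata3 count was 202, 386 and 156 in the control libraries and 910, 1064 and 894 in those labelled CKO, so it was higher under the CKO label. Every direction given here refers to libraries by label, not by a check of the deletion. The count covers the whole gene and does not show exon 4, the deleted part, so it does not check the deletion. The paper states that sequencing showed excision of that exon in mutant lenses, and that qPCR with primers reaching it gave strongly reduced Gata3. Those data were not analysed here. The 16 crystallin genes took 16.5% of counts in control replicate 2 and 5.47% to 9.31% in the other libraries. The summed level of 18 lens fibre markers was 76351, 152771 and 52734 CPM in control and 67151, 53609 and 49402 in CKO. All 18 had a log2FC below 0, against 49.4% of all genes tested. Their median was -1.07, and -0.50 without control replicate 2. None of the fibre or lens epithelium markers was at 0. Control replicate 2 thus stood apart, and directions that turned without it are named beside the genes. In bulk pools, fewer cells of a type and less RNA per cell cannot be told apart.

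Most glutathione and antioxidant genes had nearly equal levels in CKO and control lenses, as did most genes tested. The fitted log2FC was under 0.5 in size in 38 of the 42 genes and under 0.2 in 33, against 12210 and 10210 of the 12879 genes tested. Its 95% interval lay within -0.5 to 0.5 for 25 genes, or 59.5%, against 60.3% of all genes tested. The interval lay within -1 to 1 for 37 of the 42, against 11098 of the 12879. The 5 genes whose interval reached past -1 or 1 were Gss, Gstm1, Gstp1, Nqo1 and Hmox1. By edgeR's quasi-likelihood test with Benjamini-Hochberg adjustment over 12879 genes, 0 of the 42 passed the 0.05 threshold, and over all genes the share was 0%. These p-values measure the spread between pools, each of several embryos. DESeq2's Wald test called 0 of the 42 (0.661% of all genes) and limma voom called 0 (0% of all genes). At an unadjusted p-value under 0.05 in edgeR, Gstm1 and Hmox1 were lower and 0 were higher, and these 2 of 42 genes compare with 3.55% of all genes (2.24% lower, 1.3% higher). Without control replicate 2 the number was 3 (Gstm1, Gclm and Nqo1), against 6.3% of all genes. Without control replicate 3 it was 8 (Gsr, Gss, Gsta4, Gstm1, Gstp1, Hmox1, Mgst3 and Prdx1), against 9.65%. Without control replicate 1 it was 2, against 2.48%, and without CKO replicate 1, 2 or 3 it was 1, Gstm1, against 2.51%, 3% and 2.08%. In limma voom it was 1, Gstm1, against 3.42% of all genes. In DESeq2, 3 of the 42 (Gss, Gstm1 and Hmox1) had an unadjusted p-value under 0.05, against 3.94% of all genes.

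The median log2FC of the 42 genes was -0.06, against 0.0019 over all genes tested, with 26 genes lower (61.9%, against 49.4% of all genes) and 16 higher. It became 0.02 without control replicate 2, with 19 lower and 23 higher. These small shifts turned with the scaling, since by library totals alone the median was 0.05 and 9 of the 42 were lower, a scaling that also moved the median of all genes from 0.0019 to 0.10. The control and CKO pools did not overlap in 4 genes, or 9.52%, against 8.36% of all genes. Of these, Gstm1 and Cat were lower (4.69% of all genes) and Gpx4 and Gstk1 were higher (3.67% of all genes). The number was 11 without control replicate 2 (21.9% of all genes), 15 without control replicate 3 (27.7%), 8 without CKO replicate 1 (15.6%), 7 without CKO replicate 2 (15.5%), 6 without control replicate 1 (13.5%) and 6 without CKO replicate 3 (14%). It was 2 with RLE factors (8.39% of all genes), 5 by library totals only (13.2%) and 4 with crystallins left out of the library sizes (8.38%).

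**Figure D1:**
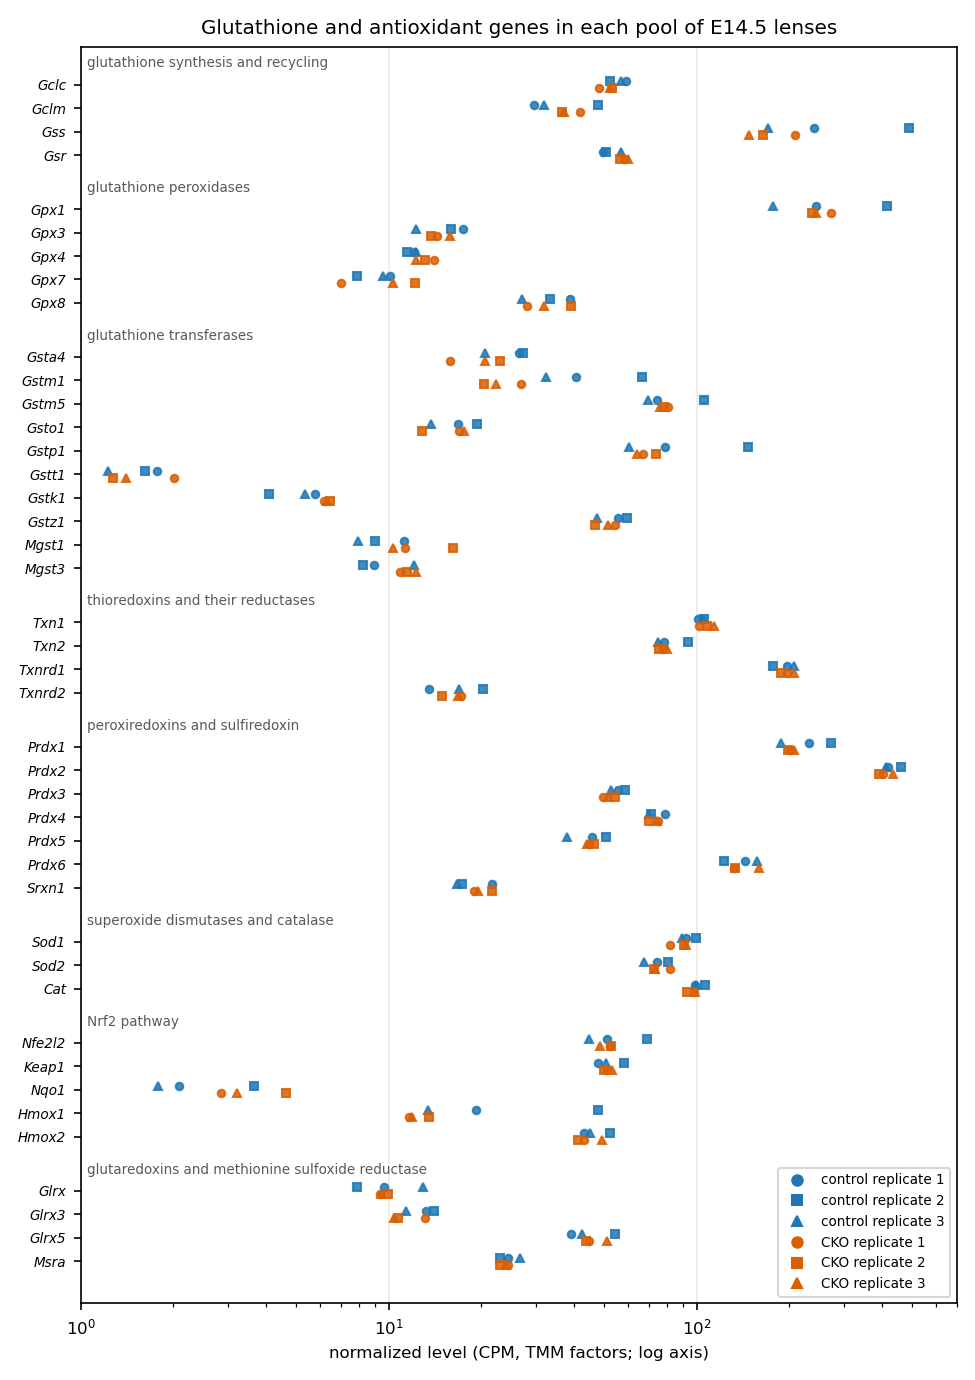
Level of each of the 42 genes in each of the 6 pools, in CPM on a log axis, with control pools in blue and CKO pools in orange, ordered by role. The groups lie together for most genes, Gstm1 is lower in all 3 CKO pools, and for Gss, Gpx1, Gstp1 and Hmox1 the highest point is control replicate 2.

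Compared per kilobase of exon, the most abundant transcripts were those of Gpx1, at 247 CPM per kilobase over the 6 pools, and Prdx2, at 226. Gpx1 encodes the main selenium-dependent peroxidase of the cytosol, and Prdx2 a cytosolic peroxiredoxin abundant in red blood cells. Sod1 followed at 142 CPM per kilobase, Gss at 121, Txn1 at 101, Gstp1 at 99.5 and Prdx1 at 85.0. The range of Gpx1 over the pools, 165 to 387 CPM per kilobase, covered that of Prdx2, 211 to 248, so their order was not beyond the spread between pools. The lowest levels per kilobase were those of Gstt1, at 1.04 in control and 1.06 in CKO, and Nqo1, at 1.62 and 2.298. Of the 50-base stretches of Prdx2, 20.1% also occur in other genes. The shares were 23.1% for Sod1, 7.03% for Gss, 2.5% for Txn1, 58.6% for Gstp1, 9.78% for Prdx1 and 0% for Gpx1. Prdx2 also shares 350 of its 1854 exon bases with exons annotated on the opposite strand. How far such sharing changed the order of genes was not tested.

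Of the 4 genes for synthesis and recycling of glutathione, 2 were lower and 2 higher, and none passed the test. Gss, on chromosome 2 (155563181–155592810, mm10), encodes glutathione synthetase, which adds glycine in the final step. Gss stood at 240 CPM (control 1), 489 (control 2) and 170 (control 3), and at 208, 164 and 148 in CKO replicates 1, 2 and 3. The control 2 value was the highest, control 1 was next, and control 3 lay within the CKO range. The log2FC was -0.79 (95% interval -1.70 to 0.13, edgeR adjusted p = 0.9998), and without control replicate 2 it was -0.23. Gss shares 276 of its 1963 exon bases with exons annotated on the opposite strand, so a count without strand would mix them.

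Gclc and Gclm encode the catalytic and modifier subunits of glutamate-cysteine ligase, the rate-limiting enzyme. The Gclc level was 56.0 ± 3.48 CPM (SD, n = 3) in control lenses, and in CKO lenses it was 51.1 ± 2.70 (SD, n = 3), a log2FC of -0.13 (95% interval -0.33 to 0.07). Gclm had 36.5 ± 9.82 and 38.4 ± 2.99 CPM, a log2FC of 0.08 (95% interval -0.37 to 0.52) that was 0.33 without control replicate 2. Gsr encodes glutathione reductase. It measured 49.5, 50.6 and 56.7 CPM in control and 57.9, 56.5 and 59.7 in CKO, a log2FC of 0.15 (95% interval -0.05 to 0.35). CKO replicates 1 and 3 lay above all control pools, and CKO replicate 2 lay just below control replicate 3.

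Genes beside these in the pathway included the lowest fold change of all the glutathione genes. Ggct, on chromosome 6 (54982580–54992950), encodes gamma-glutamylcyclotransferase, which breaks down gamma-glutamyl dipeptides. The study names it for glutathione homeostasis in its list of genes lower in the Gata3, N-Myc and Prox1 lens mutants alike. The Gata3 part of that list came from these same libraries, so it is not independent evidence for them. Ggct had 22.6, 45.3 and 18.4 CPM in control and 10.9, 8.49 and 6.82 in CKO. Every CKO pool was below every control pool. The log2FC was -1.72 (standard error 0.37, edgeR adjusted p = 0.638, DESeq2 adjusted p = 0.00104), and it was -1.22 without control replicate 2. Slc7a11 encodes the cystine carrier that supplies cysteine for glutathione. Its values were 87.5, 178 and 59.7 CPM in control and 70.3, 54.7 and 41.8 in CKO, with overlapping groups and a log2FC of -0.96 (95% interval -1.95 to 0.02), or -0.40 without control replicate 2. Its partner subunit Slc3a2 had a log2FC of -0.35, and 0.01 without control replicate 2.

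**Figure D2:**
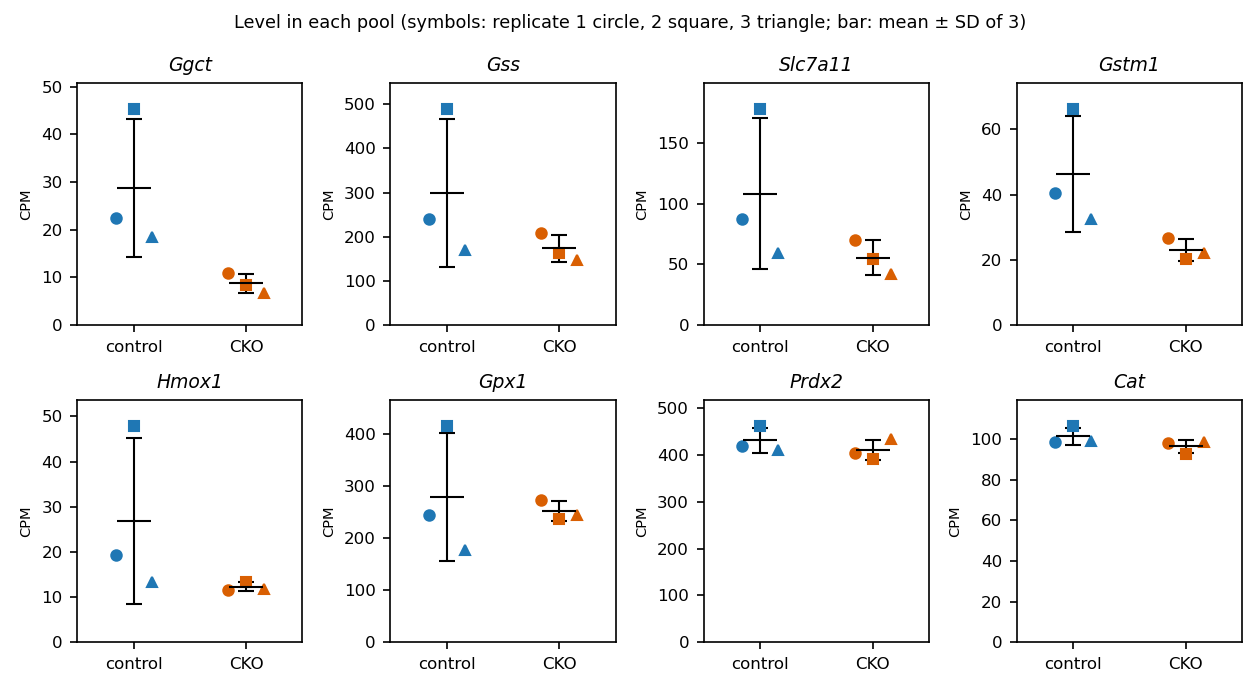
Level in CPM of 8 genes in each control (blue) and CKO (orange) pool, with the mean and SD of 3 pools, on axes that start at 0. In Ggct and Gstm1 all CKO pools are below all control pools, in Gss, Slc7a11, Hmox1 and Gpx1 control replicate 2 is set apart, and Prdx2 and Cat vary little.

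The 5 glutathione peroxidase genes had log2FC values between -0.15 and 0.14. Gpx1, on chromosome 9 (108338903–108340343), had 245, 415 and 177 CPM in control and 274, 237 and 245 in CKO. The control pools spanned the whole CKO range. The log2FC of -0.15 (95% interval -0.85 to 0.56) was 0.27 without control replicate 2, so its direction rested on that library. Gpx4 encodes the peroxidase that reduces lipid hydroperoxides in membranes. It was counted 190, 163 and 219 times in control and 216, 258 and 236 times in CKO, which gave 12.04, 11.5 and 12.2 CPM against 14.0, 13.1 and 12.3. The groups did not overlap, though the nearest values were almost equal, and the log2FC was 0.14 (95% interval -0.15 to 0.43). The level of Gpx4 is uncertain, since 51.4% of the 50-base stretches of its transcripts also occur in transcripts of the pseudogene Gpx4-ps2. Gpx8, an enzyme of the endoplasmic reticulum with cysteine in place of selenocysteine, had 38.8, 33.5 and 27.1 CPM in control and 28.2, 39.2 and 31.9 in CKO, with fully mixed groups and a log2FC of -0.000359 (0.02 without control replicate 2). Gpx3, the secreted plasma form, and Gpx7, a relative of Gpx8, had log2FC values of -0.06 and 0.10.

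Among the 10 glutathione transferase genes, 6 were lower and 4 higher, though Gstm5, Gsto1 and Gstz1 turned to higher by library totals only, and without control replicate 2 the split was 4 lower and 6 higher. Gstm1, a cytosolic mu-class transferase on chromosome 3 (108012255–108017973), was the gene of the 42 with the smallest unadjusted p-value, 0.0089 in edgeR and 4.15e-04 in DESeq2. It was counted 638, 940 and 580 times in control and 414, 400 and 427 times in CKO, or 40.4, 66.2 and 32.4 CPM against 26.8, 20.3 and 22.2. All CKO pools were below all control pools. The log2FC was -1.002 (standard error 0.27, 95% interval -1.66 to -0.35), with an edgeR adjusted p = 0.902, a DESeq2 adjusted p = 0.0600 and a limma voom adjusted p = 0.990. Leaving out any 1 library gave values from -1.21 to -0.65, of which -0.65 was that without control replicate 2. Paralogs limit this count, since 21.0% of the 50-base stretches of Gstm1 occur in other genes, mainly Gstm2-ps1.

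The other mu-class genes had smaller fitted differences. Gstm5 had 74.5, 105 and 69.5 CPM in control and 80.6, 78.5 and 75.8 in CKO, with the CKO pools inside the control range and a log2FC of -0.09 (95% interval -0.47 to 0.29, and 0.13 without control replicate 2). Gstm2, Gstm4, Gstm6 and Gstm7 had log2FC values of -0.44, -0.17, -0.46 and -0.16, and none had an unadjusted p-value under 0.05. Without control replicate 2, Gstm2 turned to 0.05. The 95% intervals of Gstm2 (-1.44 to 0.56) and Gstm6 (-1.16 to 0.24) included the fitted value of Gstm1, and those of Gstm4, Gstm5 and Gstm7 did not. Whether Gstm1 differed from them was not tested.

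Gstp1, the pi-class transferase, had 78.9, 146 and 60.3 CPM in control and 67.0, 73.8 and 63.8 in CKO. Its log2FC of -0.48 (95% interval -1.23 to 0.27) was -0.02 without control replicate 2, and 58.6% of its 50-base stretches also occur in Gstp2. Gstk1, a transferase of mitochondria and peroxisomes, had 5.77, 4.09 and 5.36 CPM in control and 6.16, 6.46 and 6.30 in CKO. Its groups did not overlap, and the log2FC was 0.31 (95% interval -0.16 to 0.78). Of the membrane-bound forms, Mgst1 had a log2FC of 0.43 (95% interval -0.12 to 0.97), with its highest value, 16.2 CPM, in CKO replicate 2, and Mgst3 one of 0.24 (95% interval -0.19 to 0.68). The summed level of mesenchyme markers was also highest in CKO replicate 2, at 4656 CPM against 587 to 2843 in the other libraries, and its part in the Mgst1 value was not tested. Gsta4, Gsto1, Gstt1 and Gstz1 had log2FC values of -0.32, -0.07, 0.02 and -0.09, and Gsto1 was 0.06 without control replicate 2.

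The thioredoxin system was even between the groups, with all 4 log2FC values between -0.08 and 0.06 and all 4 intervals within -0.5 to 0.5. Txn1 encodes cytosolic thioredoxin, and it had 101, 106 and 105 CPM in control and 102, 108 and 114 in CKO. The log2FC of Txn1 was 0.06 (95% interval -0.11 to 0.23). Txnrd1, its reductase and a selenoprotein, had 197, 177 and 207 CPM in control and 197, 188 and 207 in CKO, a log2FC of 0.03 (95% interval -0.17 to 0.23, and -0.02 without control replicate 2). The mitochondrial pair Txn2 and Txnrd2 had values of -0.08 and -0.05, which were 0.03 and 0.11 without control replicate 2. Txnip, which encodes a protein that binds and inhibits thioredoxin, had a log2FC of 0.22 (95% interval -0.11 to 0.55) with overlapping groups.

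Peroxiredoxin genes were also even, between -0.19 for Prdx1 and 0.11 for Srxn1, which encodes sulfiredoxin, the enzyme that repairs over-oxidized peroxiredoxins. Prdx2, on chromosome 8 (84969587–84974834), had 419, 461 and 411 CPM in control and 404, 391 and 432 in CKO. Its log2FC was -0.07 (95% interval -0.27 to 0.13), with overlapping groups. Prdx1 had 231, 274 and 187 CPM in control and 201, 198 and 206 in CKO, and all CKO pools lay within the control range (log2FC -0.19, 95% interval -0.52 to 0.13, and -0.04 without control replicate 2). Mitochondrial Prdx3, Prdx4 of the endoplasmic reticulum, Prdx5 and Prdx6 had log2FC values of -0.10, -0.01, 0.0074 and 0.0051, and Prdx6 was -0.07 without control replicate 2. Prdx2 is abundant in red blood cells, and the summed level of the erythroid markers in the table was 776, 1636 and 558 CPM in control and 535, 633 and 633 in CKO. Of 12 such markers, Hba-a2, Hbb-bs and Hbb-bt had 0 counts in 1 or more libraries, and 9 were tested. The deposited counts were limited to genes above a minimum mean FPKM, so these 0 counts do not show that the transcripts were absent. The summed level may therefore miss part of the globin transcripts. The part of blood in the Prdx2 level was not tested.

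The superoxide dismutase genes and Cat had log2FC values between -0.08 and 0.03. Sod1, the copper-zinc enzyme of the cytosol, had 92.4, 99.5 and 89.4 CPM in control and 81.8, 90.8 and 92.6 in CKO, a log2FC of -0.08 (95% interval -0.28 to 0.11). Sod2, the manganese enzyme of mitochondria, had a log2FC of 0.03 (95% interval -0.20 to 0.26). Cat, on chromosome 2 (103453849–103485160), encodes catalase, which splits hydrogen peroxide in peroxisomes. Its values were 98.71, 106.4 and 99.31 CPM in control and 98.22, 92.66 and 98.65 in CKO. The groups did not overlap, but the lowest control and the highest CKO value were almost equal. The log2FC was -0.07 (95% interval -0.23 to 0.09).

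**Figure D3:**
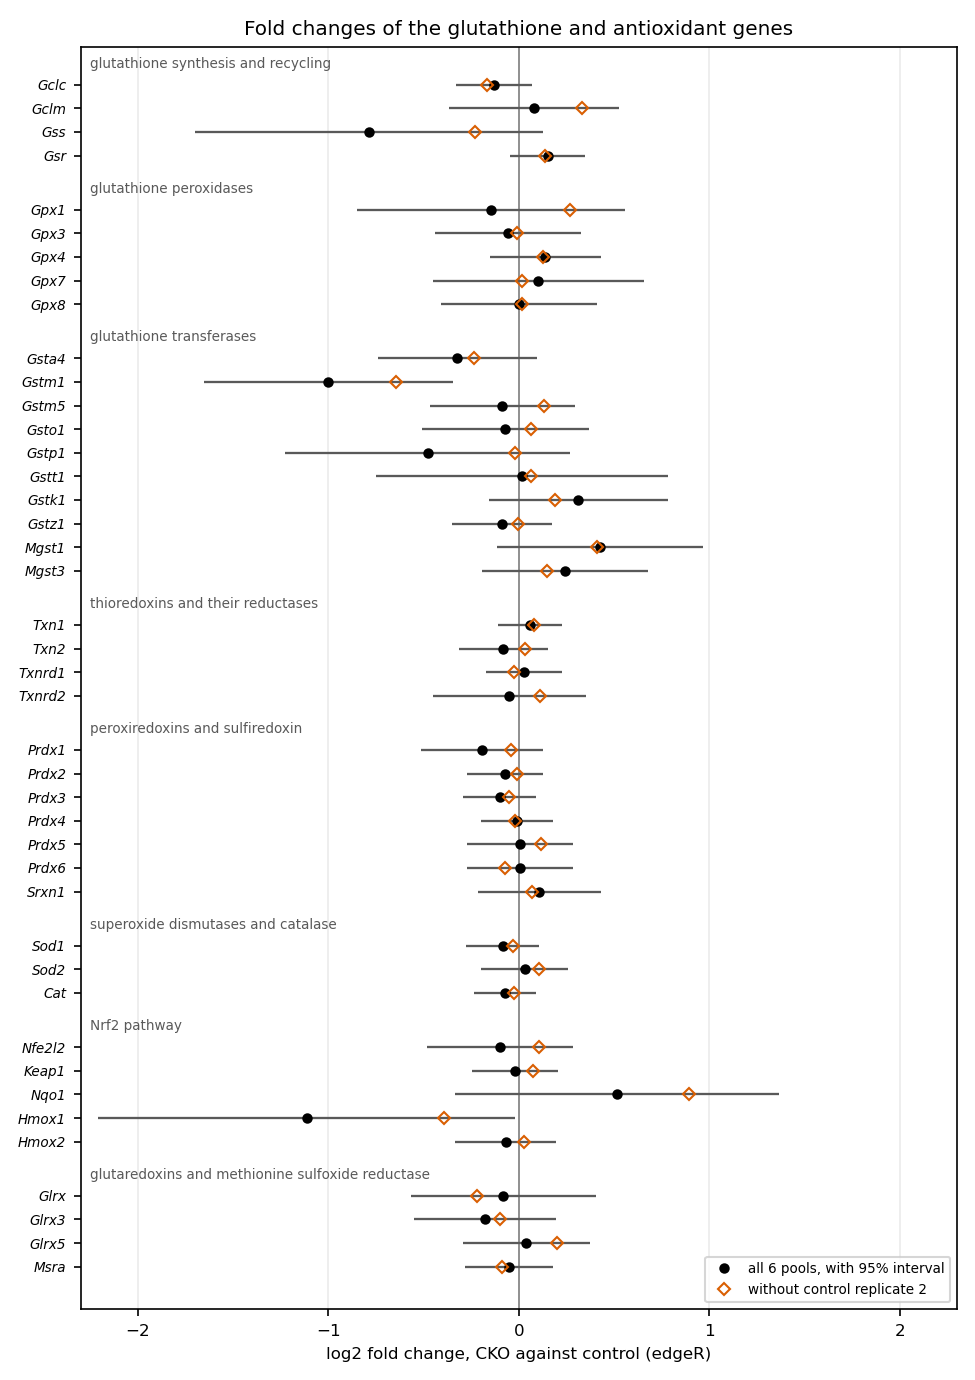
Log2 fold change of CKO against control for each of the 42 genes from edgeR (filled circles) with its 95% interval (lines), and without control replicate 2 (open diamonds), ordered by role. Intervals are narrow around 0 for the thioredoxin, peroxiredoxin and superoxide dismutase genes, and Gstm1 and Hmox1 are the genes whose interval lies wholly below 0, from -1.66 to -0.35 and from -2.21 to -0.02.

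In the Nrf2 pathway, neither the transcription factor gene nor its inhibitor differed beyond the spread between pools. Nfe2l2, which encodes Nrf2, had 51.0, 68.8 and 44.6 CPM in control and 52.3, 52.5 and 48.4 in CKO. All CKO values lay within the control range (log2FC -0.10, 95% interval -0.48 to 0.28, and 0.11 without control replicate 2). The Keap1 level was 52.1 ± 5.33 CPM (SD, n = 3) in control lenses, and in CKO lenses it was 51.4 ± 1.57 (SD, n = 3), a log2FC of -0.02 (95% interval -0.24 to 0.21, and 0.08 without control replicate 2). Cul3, which encodes the ubiquitin ligase scaffold that works with Keap1, had a log2FC of -0.36 (95% interval -0.74 to 0.02) and groups that did not overlap, and was -0.14 without control replicate 2.

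Hmox1, on chromosome 8 (75093621–75100589), encodes the inducible haem oxygenase, which degrades haem and is expressed in macrophages. It was counted 304, 679 and 240 times in control and 180, 265 and 229 times in CKO, or 19.3, 47.8 and 13.4 CPM against 11.7, 13.5 and 11.9. Control replicate 2 was far above every other library, and control replicate 3 lay within the CKO range. The log2FC was -1.11 (standard error 0.46, edgeR adjusted p = 0.9998 DESeq2 adjusted p = 0.549), and -0.39 without control replicate 2. Macrophage markers were highest in the same library, with 148, 191 and 104 CPM summed over 12 genes in control and 95.6, 125 and 99.7 in CKO, and their part in the Hmox1 level was not tested. None of the 12 was at 0 in any library.

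Hmox2, the constitutive form, had 43.1, 52.3 and 45.1 CPM in control and 43.2, 41.3 and 49.4 in CKO, a log2FC of -0.07 (95% interval -0.33 to 0.20, and 0.03 without control replicate 2). For Hmox2, 43.8% of the 50-base stretches occur in other genes, mainly the opposite-strand gene Cdip1. Nqo1, a quinone reductase and a classical Nrf2 target, was counted 33, 52 and 32 times in control and 44, 91 and 62 times in CKO. Its highest level, 4.63 CPM, was in CKO replicate 2. The log2FC of Nqo1 was 0.52 (95% interval -0.33 to 1.37). Leaving out any 1 library gave values from 0.28 to 0.90, of which 0.90 was that without control replicate 2 (edgeR adjusted p = 0.702).

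The form TGACNNNGC, which antioxidant response elements hold, was looked for on both strands of the RefSeq promoters (GRCm38.p6, the assembly of mm10). The window ran from 250 bases before to 50 after each gene start, and the base before TGAC was left free. Promoters were matched for 36 of the 42 genes. The form was present for 8 of the 36 genes, or 22.2%, against 17.0% of the tested genes with a promoter and 14.0% of all genes. Counted by promoter, the shares were 17.0%, 14.3% and 12.4%. These 8 sites are shown as matches to this form, and whether Nrf2 binds any of them was not tested. The matched letters are in capitals, each written 5′ to 3′ on the strand of the motif with the bases on either side.
Gclm, chr3:122245417-122245437, reverse strand: gagagtTGACGGTGCgcccgg
Prdx1, chr4:116685460-116685480, reverse strand: gggggaTGACTCAGCgctttc
Txnrd1, chr10:82859108-82859128, reverse strand: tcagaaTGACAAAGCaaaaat
Srxn1, chr2:152105546-152105566, reverse strand: tcactcTGACCTAGCtgccca
Sod1, chr16:90220700-90220720, reverse strand: tgagtcTGACCACGCccacct
Gstm5, chr3:107895806-107895826, forward strand: gcccacTGACCACGCggaggg
Mgst1, chr6:138140465-138140485, reverse strand: gcctccTGACCGTGCcaagcc
Nfe2l2, chr2:75704889-75704909, reverse strand: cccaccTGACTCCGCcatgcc
Of the 8 sites, 1 also holds the AP-1 motif TGACTCA, that of Prdx1. The 8 genes had log2FC values from -0.19 for Prdx1 to 0.43 for Mgst1, with a median of -0.03, against -0.05 for the 28 genes whose promoter did not hold the form. Among the 36 genes, 2 had the GATA motif AGATAA in a promoter, or 5.56%, against 7.37% of tested genes with a promoter. A match or its absence in this window is a description of letters only.

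Glrx5, a mitochondrial glutaredoxin for iron-sulfur clusters, had 39.2, 54.3 and 42.6 CPM in control and 44.6, 43.8 and 51.3 in CKO, with overlapping groups and a log2FC of 0.04 (95% interval -0.29 to 0.37). Msra, which repairs oxidized methionine, had 24.4, 23.0 and 26.6 CPM in control and 24.4, 22.9 and 24.0 in CKO, a log2FC of -0.05 (95% interval -0.28 to 0.18). Cytosolic Glrx and Glrx3 had log2FC values of -0.08 and -0.18.

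Control replicate 2 carried much of the variation among the 42 genes. It was the highest of the 6 pools in 23 of them, or 54.8%, against 31.6% of all genes tested, and the lowest in 6, or 14.3%, against 31.6%. Its level was 2.93 times the mean of the other control pools for Hmox1, 2.39 times for Gss, 2.10 times for Gstp1, 1.97 times for Gpx1 and 1.82 times for Gstm1. For Prdx2 the ratio was 1.11, for Sod1 1.09 and for Cat 1.07. The ratio was 0.70 for Glrx and 0.73 for Gstk1. Hmox1, Gstm1, Gss, Nqo1 and Gstp1 had the largest fitted fold changes of the 42 in either direction, and their ratios ranged from 1.82 to 2.93. The part of the fibre content of each pool in these values was not tested.

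**Figure D4:**
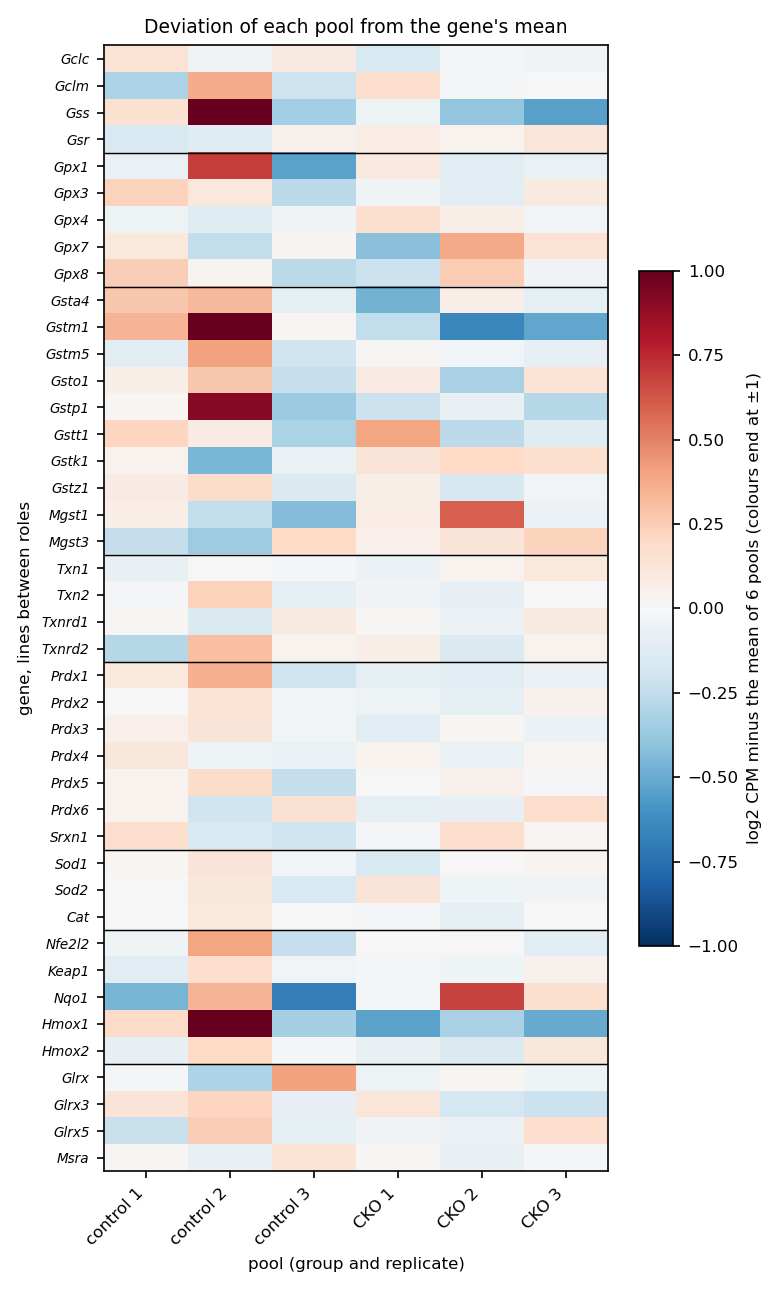
Deviation of each pool's log2 CPM from the gene's mean over 6 pools, for the 42 genes in order of role, with higher values in red and lower values in blue (colours end at 1 and -1). Control replicate 2 has the strongest red cells, in Gss, Gpx1, Gstm1, Gstp1 and Hmox1, and the rows of Txn1, Prdx2, Sod1 and Cat are pale throughout.

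Of 108 further gene names of glutathione, NADPH supply, selenoprotein and iron handling, 82 were in the deposited counts and were tested. None passed the adjusted threshold of 0.05 in edgeR (0% of all genes). Ggct and Aldh1a1, both lower, were the 2 genes with p under 0.05 before adjustment, against 3.55% of all genes. DESeq2's Wald test called the same 2 genes (0.661% of all genes). Groups did not overlap in 5 of the 82 genes, or 6.10%, against 8.36% of all genes. These were Ggct, Aldh1a1, Cul3, Txndc17 and Maff, each lower in CKO (4.69% of all genes). Aldh1a1, which encodes a retinaldehyde and lipid aldehyde dehydrogenase, had 1675, 2132 and 1261 CPM in control and 954, 951 and 1130 in CKO, with no overlap. Its log2FC was -0.74 (edgeR adjusted p = 0.853), and -0.53 without control replicate 2. The median over the 82 genes was -0.08, with 62 lower (75.6%, against 49.4% of all genes) and 20 higher. Without control replicate 2 the median was 0.03, with 34 lower and 48 higher. The ferritin genes Fth1 and Ftl1, which store iron, had log2FC values of -0.22 and -0.21, which were 0.04 and 0.01 without control replicate 2. The NADPH-producing enzymes G6pdx, Pgd and Idh1 had log2FC values of 0.05, -0.05 and 0.12.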

How the data were processed

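RNA from 6 pools of E14.5 mouse lenses was sequenced. Per the labels and the study's methods, the authors trimmed reads with Trim Galore, aligned them to mm10 with TopHat 2.0.13 and made whole-number counts per RefSeq gene with HTSeq 0.6.1, and the deposited counts are not normalized. The table was limited by the authors to genes above a minimum mean FPKM in a group, computed with Cuffdiff 2.2.1. The strand and overlap settings of HTSeq are not given in the sources used here. CKO titles and column names number the replicates differently, and title numbers were used.

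Genes counted 10 or more times in 3 or more libraries were fitted with edgeR 4.0.16 (TMM, robust quasi-likelihood, R 4.3.3), with 95% intervals from the same fit and Benjamini-Hochberg adjustment over all genes. DESeq2 1.42.0, limma voom 3.58.1, other library scalings, other filters, a replicate block, offsets of 0.5 and 5 CPM and leaving out each library were alternatives. The code was tested on simulated data. Replicates were compared, and none were duplicates. Libraries held 15157230 to 18811104 counts.

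Genes, lists and tests were chosen with earlier results of these data known. Values in every pool are given for genes with an unadjusted p under 0.05, groups without overlap, a call by any tool, or the highest or second highest level per kilobase of a role. Ggct, and further pathway genes with an unadjusted p under 0.05, were included by the same rule. Slc7a11, Slc3a2, the other Gstm genes, Txnip, Cul3, the ferritins, the NADPH enzymes and the counts or levels given for Nqo1 and Mgst1 were picked after their values were seen. Positions, exon lengths and shared 50-base stretches came from GENCODE M21 (GRCm38, the assembly of mm10), and promoters from RefSeq (GRCm38.p6).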

Additional observations from a re-analysis of the deposited data

How the results depend on the processing

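DESeq2 and limma voom change the model and test together, DESeq2 the size factors as well, and the other alternatives change 1 choice each. In every alternative 0 of the 42 glutathione and antioxidant genes passed an adjusted p of 0.05, and in edgeR with library totals only 1 of all genes passed, against 85 with DESeq2's Wald test and 0 to 8 with 1 library left out (8 without control replicate 2, 1 without control replicate 3). Those of the 42 with an unadjusted p under 0.05 numbered 1 in limma voom (3.42% of all genes) and 1 to 8 with a library left out (2.08% to 9.65% of all genes). Groups did not overlap in 2 of the 42 with RLE factors (8.39% of all genes) and in 6 to 15 with a library left out (13.5% to 27.7%). The median log2 fold change of the 42 was 0.0485 by library totals only and -0.0987 to 0.0232 with a library left out. Titles give both groups the numbers 1 to 3, but deviations of same-numbered pools correlated at -0.507, 0.0897 and 0.484, so the numbers were not taken to pair the pools. With a replicate block the median was -0.0483, 2 of the 42 had an unadjusted p under 0.05 and 0 genes passed. Of 419 fold changes of single genes under settings that kept all libraries, 397 were scored as the same and 22 turned direction. A fitted value was the same if it kept its direction and side of the threshold. With an offset, where no test was run, a value was the same if it lay within a standard error of the main fit. By library totals only, where the median of all genes was 0.10, the turned values were Gpx3 0.0524, Gpx8 0.108, Gstm5 0.0358, Gsto1 0.0446, Gstz1 0.0223, Txn2 0.0308, Txnrd2 0.0639, Prdx2 0.036, Prdx3 0.00713, Prdx4 0.093, Sod1 0.0242, Cat 0.034, Nfe2l2 0.0204, Keap1 0.0919, Hmox2 0.0419, Glrx 0.00416 and Msra 0.0439. Gpx8, near 0, was 0.00261 in DESeq2, 0.0176 in limma voom, 0.0026 with RLE factors and 0.00182 with the replicate block, and Gstt1 was -0.0052 in limma voom. With a library left out, 21 of the 42 turned direction, with ranges of Gclm -0.035 to 0.33, Gpx1 -0.39 to 0.27, Gpx3 -0.19 to 0.066, Gpx7 -0.078 to 0.29, Gpx8 -0.14 to 0.15, Gstm5 -0.20 to 0.13, Gsto1 -0.19 to 0.062, Gstt1 -0.20 to 0.15, Txn2 -0.15 to 0.029, Txnrd1 -0.024 to 0.077, Txnrd2 -0.17 to 0.11, Prdx4 -0.042 to 0.065, Prdx5 -0.10 to 0.12, Prdx6 -0.088 to 0.086, Sod2 -0.035 to 0.11, Nfe2l2 -0.23 to 0.11, Keap1 -0.063 to 0.076, Hmox2 -0.15 to 0.028, Glrx -0.22 to 0.13, Glrx5 -0.04 to 0.20 and Msra -0.0905 to 0.0057. The other 21 kept their direction. The filter of 50 counts left out Gstt1. The number of pools, 3 a group, limits all values. The causes of these shifts were not tested.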
